A study of Homo sapiens with 6 samples.

Results

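The androgen receptor acts on its genes through coregulators, and 8 of them were examined here among the 35554 genes of the deposited count table. They were taken by gene symbol and were the coactivators NCOA1, NCOA2, NCOA3 and NCOA4, the acetyltransferases EP300 and CREBBP, the corepressor NCOR1 and the histone demethylase KDM1A. Each of the 8 passed the filter on low counts, as did 19711 genes in all. The RNA was sequenced from 3 libraries of parental LNCaP and 3 of LNCaP-enzaR. LNCaP is an established, androgen-responsive line derived from metastatic prostate carcinoma, and LNCaP-enzaR was derived from it by prolonged culture with enzalutamide, a drug that blocks the androgen receptor. The study's methods state that the resistant line was afterwards kept on a lower drug concentration, and the labels do not say whether drug was present at harvest. Each group is thus a single line with a single culture history, which the labels describe as 3 flasks, so that p-values measure the spread between flasks. In such bulk samples, fewer cells that express a gene and less RNA per cell cannot be told apart.

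A nuclear receptor that has bound its hormone and its DNA site recruits coactivators, and without hormone or with an antagonist it can recruit corepressors in their place. The p160 family (NCOA1, NCOA2 and NCOA3, also called SRC-1, TIF2 and AIB1) binds the receptor directly and brings in EP300 and CREBBP, the paralogous acetyltransferases p300 and CBP, which acetylate histones. NCOR1 forms the core of a complex that carries the deacetylase HDAC3. KDM1A (LSD1) removes methyl groups from histone H3, works within the CoREST complex and has been described both as a corepressor and as a coactivator of the androgen receptor. NCOA4 was first described as a coactivator of this receptor and is also the cargo receptor that delivers ferritin to lysosomes.

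Library totals ran from 77759122 to 98616465 counts, and the members had between 1867 and 29162 counts in each library. Transcripts of the mitochondrial genome took 6.72% to 7.06% of the counts in parental libraries and 14.7% to 15.5% in LNCaP-enzaR, and every member kept its direction and its side of the threshold when those genes were left out. LNCaP-enzaR replicate 1 stood somewhat apart from the other libraries of its line, with a chi-square per degree of freedom of 28.2 and 35.6 against them, where the other pairs within a line gave 5.56 to 9.06. Without that library the same number of members, 5, was past the threshold. All 8 prostate luminal markers examined exceeded 1 CPM (counts scaled to 1000000 per library) in both lines, with a summed level of 4709 to 4841 CPM in parental libraries and 3002.5 to 3306 in LNCaP-enzaR. They moved in both directions, with 5 lower and 1 higher past the threshold given below. KLK3, the gene of prostate-specific antigen, had means of 1189 and 141 CPM, and the keratin KRT8 397 and 886 CPM. Basal markers summed to at most 1.70 CPM, with KRT5 and TP63 at 0 in each parental library, and 5 leukocyte markers to at most 0.216 CPM. The 4 fibroblast markers analysed summed to 14.1 to 17.2 CPM in parental libraries and 6.72 to 7.16 in LNCaP-enzaR, and again moved in both directions. COL1A1 lay at 12.4 to 15.1 CPM in parental libraries and 4.03 to 4.80 in LNCaP-enzaR, LUM at 0.324 to 0.598 and 1.24 to 1.71 CPM, and DCN reached at most 0.226 CPM. The part of these differences in the results below was not tested.

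Of the 8 coregulators, 5 differed between the lines by at least 1.5-fold with a Benjamini-Hochberg adjusted p no higher than 0.05 in edgeR's quasi-likelihood test, as did 42.7% of all genes tested. Both limits together are called the threshold here. With no limit on the fold the number was again 5 in this fit, beside 66.3% of all genes. In other edgeR fits the adjusted p of EP300 was 0.0358 with library totals and 0.0309 without LNCaP-enzaR replicate 1. That of NCOA4 was 0.0182 with upper-quartile scaling. NCOA2 and NCOA3 were higher in LNCaP-enzaR, as were 23.3% of all genes, and NCOA1, NCOR1 and KDM1A were lower, as were 19.5%. NCOA4, EP300 and CREBBP did not pass. Of 6359 genes with a mean CPM at least that of NCOA3, the lowest among the members, 34.1% were past the threshold. The share of members called is set here beside these shares as a description and was not tested against them.

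Upstream sequences are shown for the 3 genes past the threshold whose window was at hand and held no annotated exon, since NCOA1, NCOA3 and KDM1A changed in unlike directions. No factor binding was measured. Each line gives the reference sequence from 250 to 31 bases before the transcription start of RefSeq (GRCh38.p14), 5′ to 3′ along the gene, and capitals mark matches to any of 6 motifs searched on both strands.
NCOA1 (chr2:24491004-24491223, plus strand): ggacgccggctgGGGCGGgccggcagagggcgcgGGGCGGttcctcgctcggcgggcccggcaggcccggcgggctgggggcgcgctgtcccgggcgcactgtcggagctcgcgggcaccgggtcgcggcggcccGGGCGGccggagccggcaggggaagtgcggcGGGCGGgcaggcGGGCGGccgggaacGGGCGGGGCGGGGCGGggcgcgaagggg
NCOA3 (chr20:47501637-47501856, plus strand): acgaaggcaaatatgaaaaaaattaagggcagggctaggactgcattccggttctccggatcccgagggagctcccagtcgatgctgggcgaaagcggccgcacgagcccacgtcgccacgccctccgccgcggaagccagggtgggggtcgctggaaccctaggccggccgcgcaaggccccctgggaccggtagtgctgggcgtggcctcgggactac
KDM1A (chr1:23019218-23019437, plus strand): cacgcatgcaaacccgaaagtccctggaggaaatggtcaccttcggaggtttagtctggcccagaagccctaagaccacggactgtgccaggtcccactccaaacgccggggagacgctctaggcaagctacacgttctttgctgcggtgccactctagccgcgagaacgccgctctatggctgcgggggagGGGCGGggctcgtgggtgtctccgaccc

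Motifs were the GC box GGGCGG, the ETS motif CCGGAAG, the NRF1 motif, the CCAAT box CCAAT, the E2F motif TTTNNCGC and the androgen receptor half-site AGAACA. Overlapping matches of the same motif were counted separately. The NCOA1 window held 8 GC boxes, some of them overlapping, and was 86.8% G or C with 40 CpG dinucleotides. The NCOA3 window held none of the 6 motifs and was 66.8% G or C with 22 CpG, and the KDM1A window held 1 GC box, with 63.2% and 17. Over 35116 promoter windows of the same 220 bases, the medians were 57.7% and 9 CpG, and 38.9% held a GC box, 6.35% the ETS motif, 0.689% the NRF1 motif, 29.8% a CCAAT box, 5.29% the E2F motif and 11.1% the half-site. No member window that was searched, 7 in all, held the half-site, the E2F or NRF1 motif or a CCAAT box, which says only that these letters do not occur there.

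The p160 coactivators changed in different directions. NCOA2 (ENSG00000140396.13, chromosome 8, 70109782 to 70403808, GRCh38, minus strand) was at 87.5, 88.1 and 91.2 CPM in parental libraries and at 163, 175 and 166 CPM in LNCaP-enzaR. The groups did not overlap, as was so for 70.6% of all genes tested, and the lowest resistant library stood well above the highest parental one. The means of 88.9 ± 1.99 and 168 ± 6.09 CPM (SD, n = 3 each) corresponded to a log2 change (LNCaP-enzaR over parental) of 0.92 (SE 0.054, edgeR adjusted p = 2.09e-09), or 1.89-fold. NCOA3 (ENSG00000124151.19, chromosome 20, 47501887 to 47656877, plus strand) was at 23.0, 22.9 and 23.8 CPM in parental libraries and 31.5, 38.9 and 35.2 CPM in LNCaP-enzaR. Its groups did not overlap either, but the resistant libraries spread more widely, with a coefficient of variation of 10.6% against 1.99%. The log2 change was 0.60 (SE 0.079, adjusted p = 1.03e-05), or 1.51-fold, just past the limit. Without LNCaP-enzaR replicate 2 it was 0.52, without parental replicate 2 it was 0.58 and with library totals as the scale 0.57, all short of 1.5-fold with the same direction.

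NCOA1 (ENSG00000084676.16, chromosome 2, 24491254 to 24770702, plus strand) went the other way. Its level was 65.6, 61.2 and 67.5 CPM in parental libraries and 40.8, 42.5 and 41.4 CPM in LNCaP-enzaR, without overlap. The log2 change was −0.64 (SE 0.061, edgeR adjusted p = 3.58e-07), or 1.56-fold lower. Upper-quartile scaling, which raised the median log2 change of all genes by 0.10, gave −0.54 and left NCOA1 short of the fold limit. The plot of CPM by library shows each gene on an axis of its own.

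**Figure D1:**
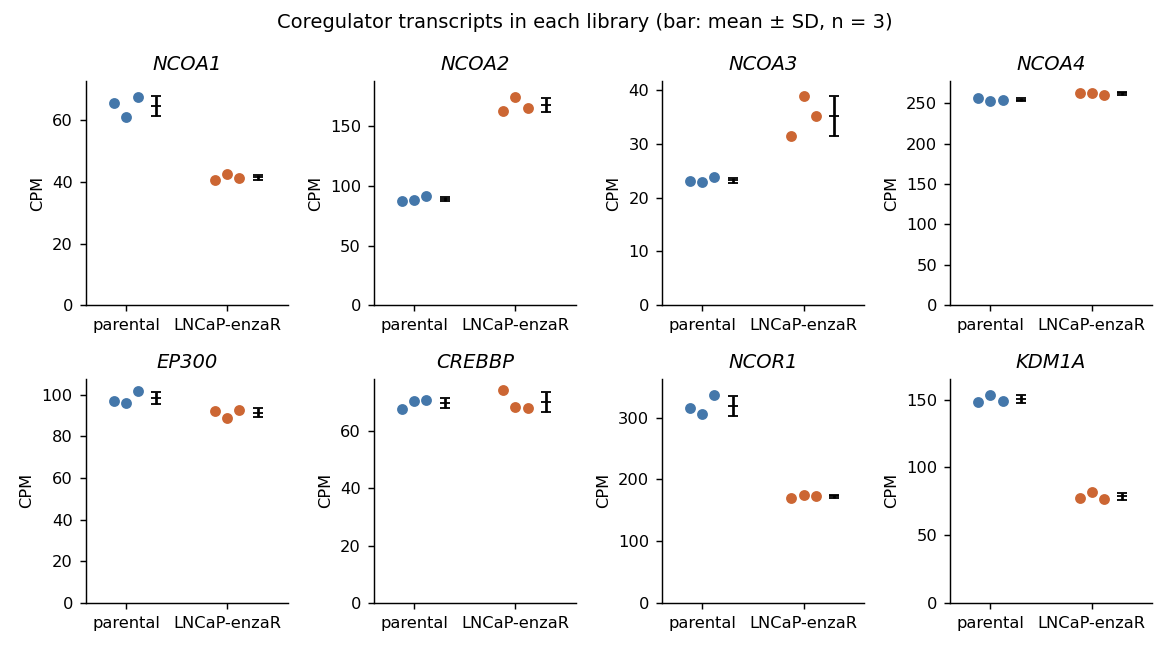
CPM of each of the 8 coregulators in the 3 parental and 3 LNCaP-enzaR libraries, 1 panel per gene with the axis starting at 0; points are libraries and the bar beside them is the mean ± SD. NCOA2 and NCOA3 were higher and NCOA1, NCOR1 and KDM1A lower in each resistant library than in any parental one. The groups of NCOA4 and EP300, which did not pass the threshold, did not overlap either, while the CREBBP groups overlapped. Of all genes tested, 70.6% did not overlap between the groups.

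NCOA4 (ENSG00000266412.6, chromosome 10, 46005088 to 46030623, minus strand) was nearly level between the lines, at 256, 253 and 254 CPM in parental libraries and at 263, 263 and 260.3 CPM in LNCaP-enzaR. The groups did not overlap, as was so for 7 of the 8 members and for 70.6% of all genes tested, and the coefficient of variation was 0.693% and 0.632%. Pseudogene copies of NCOA4 held at most 11 counts in any library. The log2 change was 0.043 (SE 0.048, edgeR adjusted p = 0.451), and its 95% interval ran from 0.959-fold to 1.11-fold. A change of 1.5-fold thus lay outside the interval.

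The acetyltransferases EP300 and CREBBP did not pass the threshold. EP300 (ENSG00000100393.14, chromosome 22, 41092592 to 41180077, plus strand) was at 97.2, 96.2 and 102 CPM in parental libraries and at 92.3, 88.9 and 92.8 CPM in LNCaP-enzaR, a little lower without overlap. Its log2 change was −0.11 (SE 0.055, adjusted p = 0.0972), with an interval from 0.856-fold to 1.01-fold. CREBBP (ENSG00000005339.15, chromosome 16, 3725054 to 3880713, minus strand) was at 67.7, 70.5 and 70.9 CPM and at 74.2, 68.4 and 67.98 CPM, and here the groups overlapped. Its log2 change was 0.0095 (SE 0.059, adjusted p = 0.897; interval 0.922-fold to 1.10-fold), a value whose sign turned with library totals (−0.026), without parental replicate 1 (−0.016) and without LNCaP-enzaR replicate 1 (−0.024). EP300 is overlapped by the antisense transcript EP300-AS1, which had 103 to 207 counts per library, and the strand setting of the counting is not stated. Exons of other genes on either strand cover 0.915% of the EP300 exonic bases, where reads may not have been told apart.

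NCOR1 (ENSG00000141027.21, chromosome 17, 16029157 to 16218185, minus strand), the corepressor, fell in LNCaP-enzaR. It was at 315, 306 and 337 CPM in parental libraries and at 169.8, 174 and 174 CPM in LNCaP-enzaR. The resistant libraries lay close together and far below each parental one. The means of 319.6 ± 16.1 and 173 ± 2.50 CPM (SD, n = 3 each) gave a log2 change of −0.89 (SE 0.054, edgeR adjusted p = 2.84e-09), or 1.85-fold lower. NCOR1 has pseudogene copies, and these held at most 9 counts in any library. Exons of other genes cover 5.44% of its exonic bases.

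KDM1A (ENSG00000004487.17, chromosome 1, 23019443 to 23083689, plus strand) also fell. It was at 148, 154 and 149 CPM in parental libraries and at 77.6, 81.6 and 76.98 CPM in LNCaP-enzaR, with replicates of each line close together. The log2 change was −0.93 (SE 0.054, edgeR adjusted p = 1.57e-09), or 1.91-fold lower. Its paralog KDM1B, a demethylase of the same kind, was at 42.5 ± 1.31 and 51.7 ± 3.04 CPM, a log2 change of 0.28 (SE 0.064, adjusted p = 0.00133) that did not reach 1.5-fold. No member reached a fold change of 2, except NCOA2 with upper-quartile scaling (log2 change 1.02). In the plot of fold changes, the interval of NCOA3 and that of NCOA1 extend to both sides of the 1.5-fold line.

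**Figure D2:**
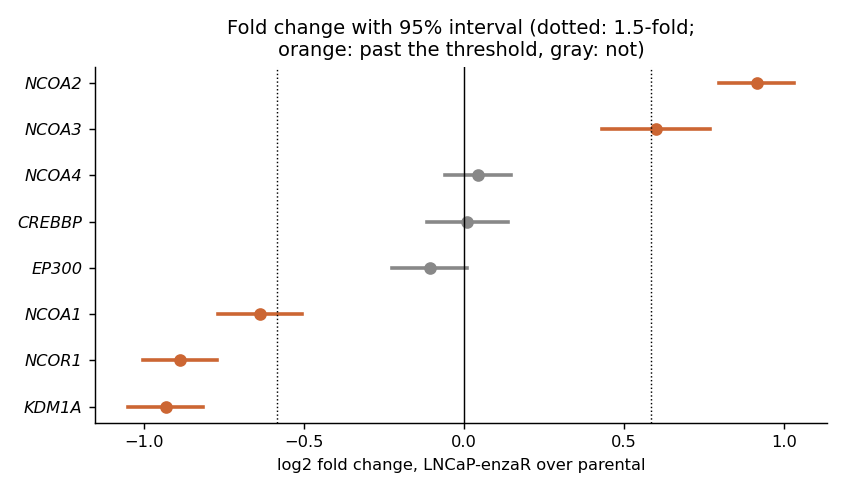
Log2 fold change of LNCaP-enzaR over parental with its 95% interval for each coregulator; dotted lines mark 1.5-fold and orange marks genes past the threshold. KDM1A (−0.93), NCOR1 (−0.89) and NCOA1 (−0.64) lie to the left, NCOA3 (0.60) and NCOA2 (0.92) to the right, and NCOA4, CREBBP and EP300 near 0.

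Levels of different genes were compared as CPM per kilobase of exon, with the exons of a gene merged. NCOA4 was highest in both lines (63.8 ± 0.442 in parental cells and 65.7 ± 0.416 in LNCaP-enzaR) and NCOA3 lowest on average (2.76 ± 0.055 and 4.18 ± 0.441). NCOR1 came next to NCOA4 in parental cells at 20.5 ± 1.03, followed by NCOA2 at 8.89 ± 0.199, EP300 at 8.42 ± 0.260, KDM1A at 8.20 ± 0.165, NCOA1 at 7.21 ± 0.357 and CREBBP at 4.50 ± 0.114. Only EP300 and KDM1A overlapped among neighbours in that order. In LNCaP-enzaR, NCOA2 at 16.8 ± 0.608 stood above NCOR1 at 11.1 ± 0.160, so that these genes had changed places. EP300 followed at 7.81 ± 0.182, and NCOA1 (4.63 ± 0.094), CREBBP (4.53 ± 0.223), KDM1A (4.30 ± 0.137) and NCOA3 followed, each overlapping its neighbours among these 4 genes. The place of KDM1A depends on the length used, since its merged exons span 18325 bases and its longest transcript 5786. With longest transcripts KDM1A took rank 3 in parental cells and rank 4 in LNCaP-enzaR, whereas NCOA4 remained first, NCOA3 last, and NCOA2 above NCOR1 in the resistant line only.

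Added up per exonic length, the p160 family went from 18.9 ± 0.559 CPM per kilobase in parental cells to 25.6 ± 1.13 in LNCaP-enzaR (SD, n = 3 each), 1.36-fold higher, without overlap between libraries. Its makeup shifted, with NCOA1 falling from 38.2% to 18.1% of the family level, NCOA2 rising from 47.1% to 65.5% and NCOA3 at 14.6% and 16.4%. EP300 and CREBBP together were at 12.9 ± 0.329 and 12.3 ± 0.330, and of this level EP300 made up 65.1% and 63.3%. The lowest parental sum, 12.683, lay barely above the highest LNCaP-enzaR sum, 12.682. These sums are a description and were not tested.

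**Figure D3:**
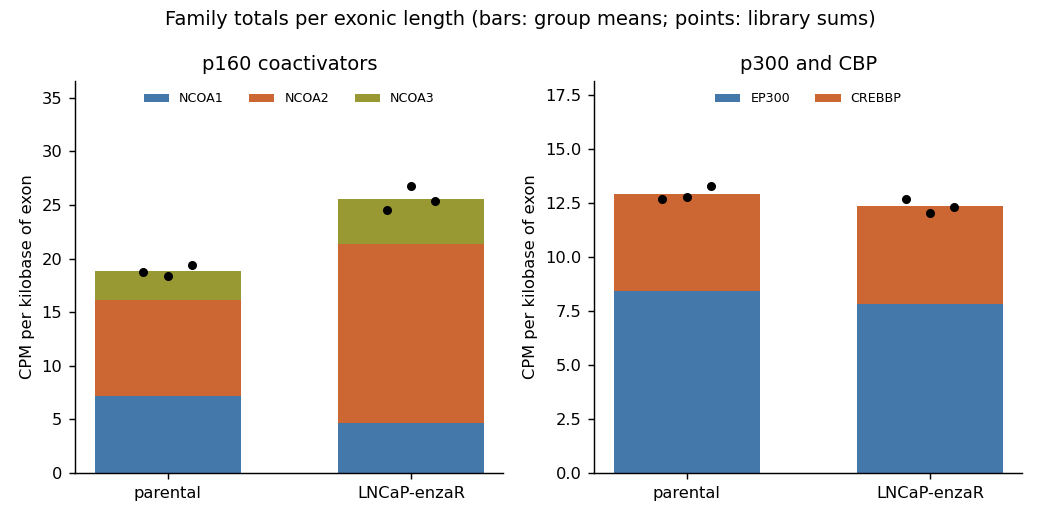
Levels in CPM per kilobase of exon for the p160 coactivators and for EP300 with CREBBP; stacked bars are group means by gene and points are the sums in single libraries. The p160 sum was 18.9 in parental cells and 25.6 in LNCaP-enzaR, and that of EP300 and CREBBP was 12.9 and 12.3.

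Ratios of counts within a library do not depend on how libraries are scaled. For each NCOR1 count there were 0.278, 0.288 and 0.270 NCOA2 counts in parental libraries and 0.960, 1.00 and 0.952 in LNCaP-enzaR. The ratio was 3.49-fold higher in the resistant line (log2 difference 1.80), with groups far apart. The ratio of NCOA3 to NCOR1 was 2.79-fold higher, at 0.070 to 0.075 in parental libraries and 0.185 to 0.223 in LNCaP-enzaR. That of NCOA1 to NCOR1, both lower in LNCaP-enzaR, differed less, at 0.1999 to 0.208 and 0.238 to 0.244 (1.19-fold). Within the p160 family, NCOA2 had 1.33 to 1.44 counts per NCOA1 count in parental libraries and 3.99 to 4.11 in LNCaP-enzaR, 2.93-fold more.

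The ratio of KDM1A to RCOR1, which encodes the CoREST scaffold that KDM1A binds, was 1.64 to 1.71 and 1.13 to 1.20, or 1.43-fold lower. The ratio of NCOA2 to NCOA3 was 1.25-fold higher without overlap. Each of these 6 ratios reached the smallest p that 3 libraries against 3 can give (two-sided exact permutation test, p = 0.10; 0.133 after Benjamini-Hochberg adjustment over 8 ratios), so that no ratio could pass 0.05. EP300 to CREBBP (1.36 to 1.44 and 1.24 to 1.37, p = 0.20 by the exact permutation test) and NCOA4 to FTH1 (0.407 to 0.451 and 0.413 to 0.514, p = 0.30 by the same exact test) overlapped between lines.

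**Figure D4:**
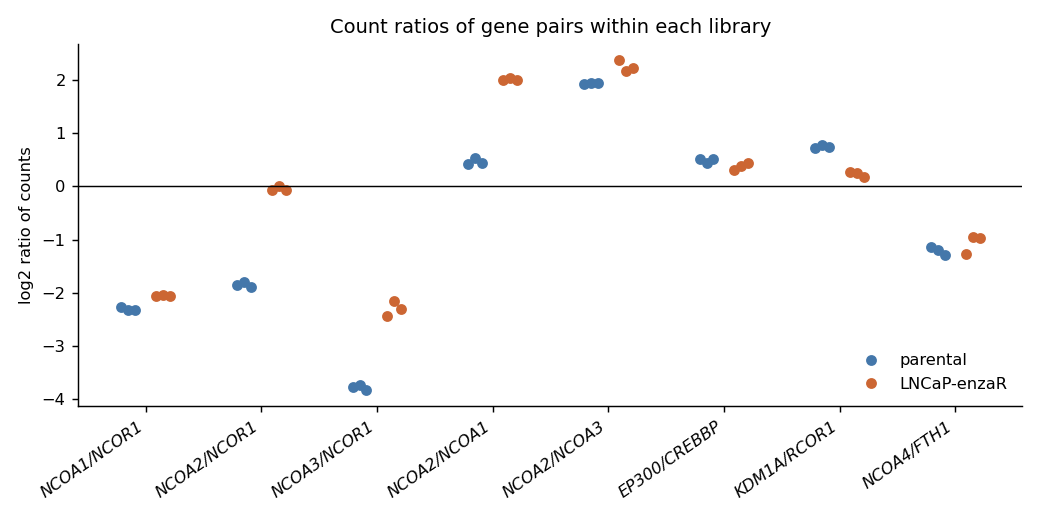
Log2 ratio of the counts of 8 gene pairs within each library, with parental libraries in blue and LNCaP-enzaR libraries in orange. The pairs NCOA2/NCOR1 and NCOA2/NCOA1 have the largest log2 differences (1.80 and 1.55), and EP300/CREBBP and NCOA4/FTH1 overlap.

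Neighbouring genes on the chromosome were set beside each member as a description. For NCOR1, the median log2 change of the 10 nearest tested genes was 0.38, of which 2 were higher past the threshold and none lower, and only 3 had the sign of NCOR1. Over the 20 nearest the median was −0.087, with 3 higher and 4 lower past the threshold, and 11 had the sign of NCOR1. For NCOA2 the 10 nearest had a median of −0.030 with 0 higher and 2 lower, and for NCOA1 0.071 with 3 higher and 2 lower. Around KDM1A the median was −0.12, with 2 of 10 lower and none higher, and over 20 genes −0.30, with 6 lower and 1 higher. Around NCOA3 it was 0.18, with 3 higher and 2 lower. Around NCOA4, itself near 0, the median of the 10 nearest was −0.73, with 1 higher and 5 lower, and −0.34 over 20. Around EP300 it was −0.26, with 0 higher and 0 lower, and 0.030 over 20. Around CREBBP it was 0.042, with 2 higher and 0 lower, and 0.13 over 20. Of all genes tested, 42.7% were past the threshold.

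Other genes that work with these coregulators were described in 8 lists of 114 tested genes in all. Of these, 43.9% were past the threshold (21 higher, 29 lower), beside 42.7% of all genes and 34.1% of genes at least as abundant as NCOA3. The lists also hold less abundant genes and were not tested against these shares. The median log2 change was −0.15 over the lists and 0.013 over all genes. Among 23 other coactivators, 2 were higher, 7 lower and 14 did not pass (median −0.27). With upper-quartile scaling 4 were higher and 4 lower, and without LNCaP-enzaR replicate 1 the numbers were 4 and 7. PPARGC1B, a coactivator known from energy metabolism, went from 20.3 ± 1.10 to 7.53 ± 0.309 CPM (log2 change −1.43, SE 0.080, edgeR adjusted p = 1.09e-09). PRMT1, an arginine methyltransferase that modifies histone H4, went from 321 ± 4.59 to 150.4 ± 19.95 CPM (−1.10). NCOA5, another coregulator, was among 112 listed genes the one whose profile over the 6 libraries was most like that of NCOA1. The root mean square difference was 0.046 in log2 CPM centred on the parental mean. Such a match, here and below, rests largely on a similar fold change, and shared regulation was not tested. The log2 change of NCOA5 was −0.68, and with upper-quartile scaling −0.58, short of 1.5-fold. NCOA7 was the most like NCOA3 (0.070), with 30.8 ± 1.96 and 44.9 ± 4.93 CPM, a log2 change of 0.54 that fell short of 1.5-fold and passed it with upper-quartile scaling (0.64), without LNCaP-enzaR replicate 1 (0.63) or without parental replicate 1 (0.59).

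Of the 14 tested partners of p300 and CBP and further acetyltransferases, 2 were higher, 2 lower (1 with upper-quartile scaling) and 10 not past the threshold (median −0.090). Over all genes tested, 23.3% were higher and 19.5% lower, and the list was not tested against these shares. CITED2, which binds a domain of p300 and CBP and was also the listed gene most like NCOA2 (root mean square difference 0.034), rose from 97.2 ± 1.16 to 181 ± 2.54 CPM (log2 change 0.90). CREB1, the transcription factor for which CBP is named, fell from 83.3 ± 2.33 to 34.1 ± 3.54 CPM (−1.29).

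In the NCoR complex, 3 of the 5 tested genes besides NCOR1 were lower, none was higher and 2 did not pass. Of all genes tested, 19.5% were lower and 23.3% higher, and the list was not tested against these shares. CORO2A, a coronin found in the complex, fell from 66.5 ± 0.902 to 14.9 ± 0.869 CPM (log2 change −2.16, SE 0.067, edgeR adjusted p = 2.51e-12). TBL1X, which with TBL1XR1 serves in the exchange of corepressors for coactivators, fell from 162 ± 4.52 to 96.8 ± 2.25 CPM (−0.75). TBL1XR1 itself did not pass, at 296 ± 8.13 and 333 ± 40.1 CPM (0.17), and neither did GPS2 (0.18). The groups of both genes overlapped. The deacetylase HDAC3 fell from 58.6 ± 1.41 to 38.8 ± 1.75 CPM (−0.59, or 1.51-fold lower). TBL1XR1, GPS2 and HDAC3 were chosen after their values were seen. In 8 of 15 alternative fits, DESeq2 among them, only 2 genes of this list, CORO2A and TBL1X, were past the threshold, and HDAC3 fell short. Among 12 other corepressors, 1 was higher and 3 lower (median −0.28). TLE1, a Groucho-family corepressor, rose from 48.4 ± 1.35 to 127 ± 4.40 CPM (1.39). SAP30 and SAP130, subunits of the SIN3 deacetylase complex, had log2 changes of −1.47 and −0.84, and SAP130 was the most like NCOR1 (root mean square difference 0.072).

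The CoREST list had 2 genes higher, 3 lower and 7 not past the threshold among 12 (median −0.30). With upper-quartile scaling 2 were higher and 1 lower. HDAC2, a catalytic subunit shared with other complexes, fell from 244 ± 5.39 to 126 ± 4.66 CPM (log2 change −0.95) and was the listed gene most like KDM1A (root mean square difference 0.032). HMG20B fell from 183 ± 5.23 to 118 ± 7.44 CPM (−0.64, and −0.54 with upper-quartile scaling, which is short of the limit). RCOR1 was at 89.8 ± 0.274 and 67.1 ± 2.32 CPM, a log2 change of −0.42 (SE 0.055, edgeR adjusted p = 1.03e-05) short of 1.5-fold. Of 13 other histone demethylases, 4 were higher and none lower (median 0.26), beside 23.3% and 19.5% of all genes. With library totals, or without parental replicate 3, only 2 were higher. KDM6B, which acts on a repressive methylation of histone H3, rose from 100.5 ± 2.68 to 178 ± 3.94 CPM (0.83), and KDM5B from 56.5 ± 1.39 to 89.3 ± 1.93 CPM (0.66).

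NCOA4 was read beside 14 genes of ferritin turnover and iron handling, of which 3 were higher, 5 lower and 6 not past the threshold (median −0.30). FTH1, the ferritin heavy chain that NCOA4 binds, was at 591 ± 28.9 and 553 ± 72.7 CPM (log2 change −0.097, SE 0.078, edgeR adjusted p = 0.292), with 63.2% of its exonic bases in exons of other genes. Without LNCaP-enzaR replicate 1 it was at −0.20 (edgeR adjusted p = 4.55e-05), and the log2 difference of the NCOA4 to FTH1 ratio was 0.25 in place of 0.15. The iron importer SLC11A2 fell from 79.5 ± 1.67 to 34.9 ± 1.66 CPM (−1.19) and the ferrireductase STEAP3 from 33.6 ± 0.737 to 12.9 ± 1.04 CPM (−1.38). Among 21 other nuclear receptors that these coregulators can serve, 7 were higher and 6 lower (median 0.28). For comparison with both lists, 23.3% of all genes tested were higher and 19.5% lower. Neither list was tested against these shares. PPARG rose from 4.31 ± 0.096 to 33.2 ± 2.37 CPM (2.95, SE 0.083, adjusted p = 1.08e-12), and NR2F2, which encodes the orphan receptor COUP-TFII, fell from 91.5 ± 3.71 to 20.2 ± 1.65 CPM (−2.18).

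**Figure D5:**
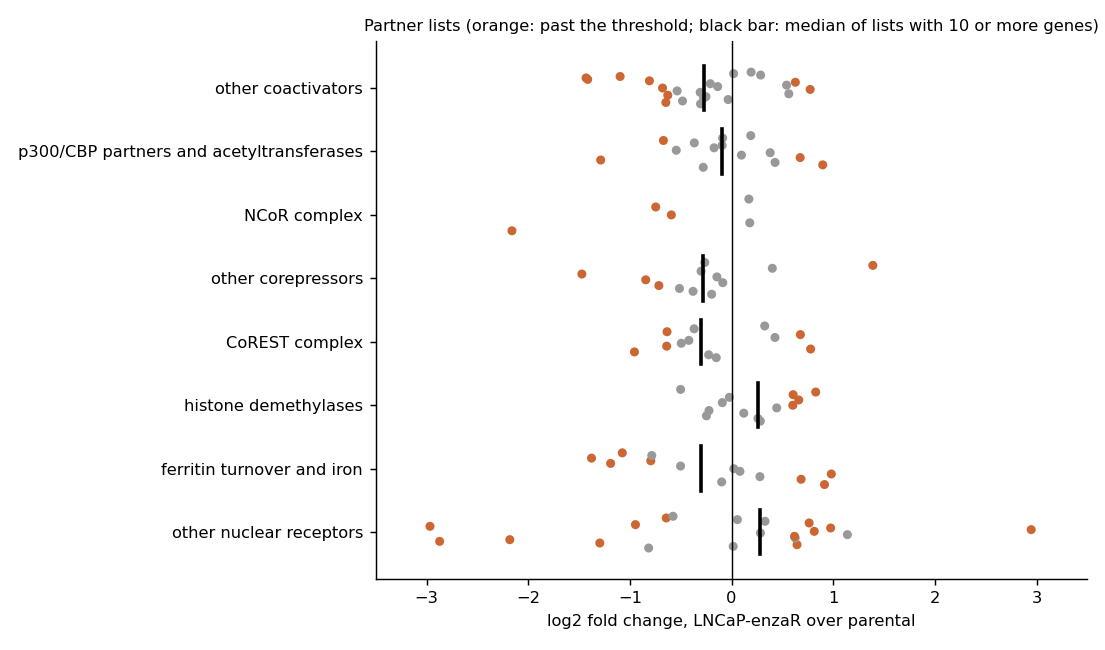
Log2 fold change of LNCaP-enzaR over parental for the tested genes of each partner list, with orange for genes past the threshold and a black bar at the median of each list with 10 or more genes drawn, computed over all its tested genes. ESR1 and SLC40A1, with at most 3 counts in every library of 1 line, are not drawn. ESR1 had 0 counts in each parental library and 77 to 161 in LNCaP-enzaR. SLC40A1 had 28 to 49 counts in parental libraries and 0 in each LNCaP-enzaR library. No gene of the NCoR list passed the threshold upwards and no histone demethylase of the list passed it downwards in the fit shown. Of all genes tested, 23.3% passed it upwards and 19.5% downwards.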

How the data were processed

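The authors made mRNA libraries from total RNA, with read pairs as output, and used Cutadapt for trimming, STAR with GRCh38.p13 for alignment and featureCounts for counting. The deposited values are their raw counts per gene, not normalized. Strand setting and the treatment of reads mapping to several places are not given in the sources used here, so genes with close copies or overlapping exons are uncertain.

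Counts of all genes were fitted with edgeR 4.0.16 in R 4.3.3 (filterByExpr, which left 19711 genes with 99.96% of the counts, TMM, robust quasi-likelihood F-test, no covariates), with Benjamini-Hochberg adjustment over the whole table. The threshold (adjusted p 0.05 and 1.5-fold) follows the study's methods, which name DESeq2 (run here as an alternative, version 1.42.0). The test was run on simulated counts before use. CPM are TMM-scaled, and intervals of fold changes are 95% intervals from the SE of the fit. Ratios were tested by exact permutation (SciPy 1.17.1). Exonic lengths and overlaps came from GENCODE release 44, where 99.8% of identifiers matched, and upstream sequences from RefSeq for 7 of the 8 members. No promoter entry was used for NCOA2.

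The members and lists were chosen with earlier results of these data known. Named genes were the members, the 2 genes of each list with the smallest p-value, KDM1B, RCOR1 and FTH1 as paralogs or partners, and the listed gene most like each member past the threshold. Others (HDAC3, TBL1XR1, GPS2, ESR1, SLC40A1 and the marker genes) were named after their values were seen. TGFB1I1, NR0B2, RXRG and HNF4A did not pass the filter, and NR0B1 was not analysed here. A further gene is not reported here and was left out of its list and of the ratios after its values were seen. Alternatives were DESeq2, RLE factors, library totals, upper-quartile scaling, filtering by a minimum of 10 counts per library or not at all, only protein-coding genes, no mitochondrial genes, the replicate number as a block, each library left out, other fold limits, transcript lengths and 20 neighbours.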

Additional observations from a re-analysis of the deposited data

How the results depend on the processing

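Over 15 alternative fits, NCOA2 (0.88 to 1.02), NCOR1 (−0.92 to −0.79) and KDM1A (−0.97 to −0.83) were past the threshold with 1 sign each, NCOA4 (0.0090 to 0.14) and EP300 (−0.14 to −0.0071) stayed short of it, and 4 or 5 members passed. At a minimum of 2-fold the number was 0 by edgeR with TMM and 0 by DESeq2, also at an unadjusted p under 0.05, and 1 (NCOA2) with upper-quartile scaling. With upper-quartile scaling NCOA1 was at −0.54, short of the limit. With library totals NCOA3 was at 0.57, and with 1 library left out it ran from 0.52 to 0.68, short of the limit without parental replicate 2 or LNCaP-enzaR replicate 2. CREBBP turned to −0.026 with library totals and ranged from −0.024 to 0.037 with 1 library left out. FTH1 turned to 0.0037 with upper-quartile scaling and was at −0.20 without LNCaP-enzaR replicate 1. The CoREST list had 3 genes past the threshold with upper-quartile scaling, and the histone demethylases 2 with library totals and 2 to 4 with 1 library left out. The cause of these changes was not tested. Longest transcripts kept 5 of 8 ranks of level in LNCaP-enzaR. Log2 differences of the ratios kept their signs when 1 library was left out. They ran from 1.41 to 1.55 for NCOA3/NCOR1, from 0.26 to 0.37 for NCOA2/NCOA3 and from 0.093 to 0.25 for NCOA4/FTH1. Replicate numbers do not pair the libraries, since deviations of same-numbered libraries correlated at −0.065 to −0.00041. With the replicate number as a block, 5 members were past the threshold and no call given here changed.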
